A study of Mus musculus with 2 samples.

Results

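B-lineage-like barcodes were found among the single-cell libraries of sorted mouse bone marrow stroma, in the group that the authors' filter did not pass. A barcode stands for 1 droplet, and ideally for 1 cell. A barcode was taken as B-lineage-like when it had not passed the filter, when its counts of Vpreb1, Vpreb3, Igll1, Cd79a, Cd79b and Ighm summed to 5 or more, and when its counts of the endothelial genes Cdh5, Kdr and Emcn summed to under 3. This rule held for 466 of the 2260 barcodes outside the filter, of 15028 barcodes in all. The other 1794 barcodes outside the filter and the 2847 passing stromal cells were the groups they were compared with, and 9921 barcodes had no filter label.

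The marrow came from the femurs, tibiae and pelvic bones of mice whose strain is labelled C56BL/6, aged 8 to 16 weeks, with no treatment or mutation named. Crushed bone and cells freed with collagenase and dispase were sorted by flow cytometry as viable and negative for CD45 (a blood cell surface protein), Ter119 (red cells) and CD31 (endothelium), and were encapsulated with inDrops, a droplet method. All the groups here share that sort, so they are groups of barcodes within the same 2 samples. Stroma1 held libraries 1.1 and 1.2, and Stroma2 held libraries 2.1, 2.2 and 2.3. Whether Stroma1 and Stroma2 came from separate animals is not given in the labels. The p-values therefore rest only on how the differences between groups varied between these samples, a spread that may be technical. That spread was estimated over all groups of a fit and was shared, at least in part, across genes. A small p-value is thus not by itself a sign that the samples agreed on that gene.

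B cells arise in the bone marrow, where stromal cells supply CXCL12 and interleukin 7. In pro-B cells the recombinase RAG1/RAG2 joins the gene segments of the immunoglobulin heavy chain, and terminal transferase, encoded by Dntt, adds bases at the joints. The heavy chain (Ighm) then pairs with the surrogate light chain, made of the VpreB and lambda5 (Igll1) proteins, and with the signalling chains Cd79a and Cd79b, to form the pre-B cell receptor. Small pre-B cells shut off the surrogate light chain and Dntt, use RAG again on the light chain loci, and begin to transcribe Igkc, the kappa constant region.

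The promoters of 8 genes are shown, genes of the pre-B receptor or of V(D)J recombination and Vpreb3, because the results turn on these genes. Of these, 4 are genes of the rule, which used their summed counts to choose the members, so their levels in members are not independent of it. The promoters shown are the 250 bases before and 50 bases after each gene's start in RefSeq (GRCm38), 5′ to 3′ on the gene's strand. The capitals mark the E-box CAGGTG or its reverse complement CACCTG, a motif that E2A proteins, encoded by Tcf3, are known to bind.
Vpreb1 (chr16:16869206-16869505, minus strand): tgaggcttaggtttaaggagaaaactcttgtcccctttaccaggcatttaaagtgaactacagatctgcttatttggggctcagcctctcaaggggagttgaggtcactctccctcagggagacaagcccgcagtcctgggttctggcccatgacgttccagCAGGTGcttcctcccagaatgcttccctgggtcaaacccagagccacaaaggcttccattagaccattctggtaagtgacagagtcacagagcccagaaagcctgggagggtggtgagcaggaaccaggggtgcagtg
Vpreb2 (chr16:17980315-17980614, plus strand): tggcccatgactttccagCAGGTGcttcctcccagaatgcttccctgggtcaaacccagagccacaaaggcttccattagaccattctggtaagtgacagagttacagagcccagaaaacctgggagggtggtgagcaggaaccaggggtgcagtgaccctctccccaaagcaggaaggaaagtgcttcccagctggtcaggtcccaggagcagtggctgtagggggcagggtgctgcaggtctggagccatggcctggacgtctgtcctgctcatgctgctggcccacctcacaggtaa
Igll1 (chr16:16863936-16864235, minus strand): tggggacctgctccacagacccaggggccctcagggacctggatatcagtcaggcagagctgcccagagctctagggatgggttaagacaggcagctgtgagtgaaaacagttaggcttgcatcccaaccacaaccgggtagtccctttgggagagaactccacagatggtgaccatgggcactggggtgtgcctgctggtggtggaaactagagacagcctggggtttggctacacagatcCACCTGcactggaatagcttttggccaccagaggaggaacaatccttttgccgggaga
Cd79a (chr7:24897247-24897546, plus strand): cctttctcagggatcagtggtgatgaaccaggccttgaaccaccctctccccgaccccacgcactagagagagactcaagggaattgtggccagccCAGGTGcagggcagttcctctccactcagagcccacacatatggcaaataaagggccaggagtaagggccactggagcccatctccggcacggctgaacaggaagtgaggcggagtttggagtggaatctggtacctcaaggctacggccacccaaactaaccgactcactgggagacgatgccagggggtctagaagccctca
Rag1 (chr2:101649483-101649782, minus strand): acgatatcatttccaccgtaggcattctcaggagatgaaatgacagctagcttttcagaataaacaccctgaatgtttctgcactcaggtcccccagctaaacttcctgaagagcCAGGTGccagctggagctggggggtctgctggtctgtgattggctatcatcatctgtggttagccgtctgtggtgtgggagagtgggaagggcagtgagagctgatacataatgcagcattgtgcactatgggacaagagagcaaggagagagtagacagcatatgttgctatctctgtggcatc
Rag2 (chr2:101624462-101624761, plus strand): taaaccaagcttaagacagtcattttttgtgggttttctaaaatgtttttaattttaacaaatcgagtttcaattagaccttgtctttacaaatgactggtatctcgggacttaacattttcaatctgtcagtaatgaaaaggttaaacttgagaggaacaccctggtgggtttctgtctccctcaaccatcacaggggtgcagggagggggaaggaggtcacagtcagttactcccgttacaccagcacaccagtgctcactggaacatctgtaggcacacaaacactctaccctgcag
Dntt (chr19:41029025-41029324, plus strand): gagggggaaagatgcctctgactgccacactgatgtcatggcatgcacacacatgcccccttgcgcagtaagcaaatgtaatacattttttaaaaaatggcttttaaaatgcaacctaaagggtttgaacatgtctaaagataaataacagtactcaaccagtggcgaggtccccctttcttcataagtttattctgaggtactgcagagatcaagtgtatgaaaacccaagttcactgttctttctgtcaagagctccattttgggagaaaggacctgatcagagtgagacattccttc
Vpreb3 (chr10:75948050-75948349, plus strand): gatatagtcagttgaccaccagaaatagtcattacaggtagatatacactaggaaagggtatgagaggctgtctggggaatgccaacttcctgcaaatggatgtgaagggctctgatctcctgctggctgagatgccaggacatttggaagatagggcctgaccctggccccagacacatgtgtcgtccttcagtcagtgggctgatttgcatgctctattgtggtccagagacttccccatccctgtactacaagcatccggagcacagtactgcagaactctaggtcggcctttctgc
Of the 8 windows, 5 held 1 E-box each, at base -88 of Vpreb1, -232 of Vpreb2, -8 of Igll1, -154 of Cd79a and -135 of Rag1, counted from the gene's start. The E-box was present on either strand in 20.2% of all 32851 promoters and in 13 of 56 promoters of B-lineage genes with an entry (23.2%), a share near the background. Those of Rag2, Dntt and Vpreb3 held none in this window. The octamer ATTTGCAT was present in 1.74% of all promoters and in 3 of the 56, including Vpreb3 and Blnk. The Runx motif TGTGGT was in 16.8% of all promoters and 9 of the 56, and the Ikaros motif TGGGAA in 25.6% and 11. Both strands were searched, overlaps between motifs were not counted, and Vpreb2 was not on the list of B-lineage genes used for these shares. A match is a description of these letters.

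Vpreb1 and Igll1 are neighbours on chromosome 16, with 4417 bases between them, and Rag1 and Rag2 are neighbours on chromosome 2, with 5752 bases between them. The promoters of Vpreb1 and Vpreb2 matched at 153 of 156 aligned bases, and the transcripts compared at 669 of 773. Counts of Vpreb1 and Vpreb2 could have been split between them by the authors' counting, so both are uncertain as single genes.

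The values that chose the members are given as a description, with no test. Vpreb1, which encodes a surrogate light chain protein, had 2779 and 5108 CPM (a gene's counts scaled to the same total in every group) in B-lineage-like barcodes of Stroma1 and Stroma2, against 1.71 and 9.18 CPM in the other barcodes outside the filter and 12.7 and 21.2 CPM in passing cells. Igll1, the other part of the surrogate light chain, had 1162 and 3060 CPM in B-lineage-like barcodes, against 0 and 5.34 CPM in the others and 4.82 and 16.3 CPM in passing cells. Both genes were higher in Stroma2 than in Stroma1 within the B-lineage-like group. Ighm had 6149 and 3541 CPM, the opposite order, against 5.99 and 7.68 CPM in the others and 10.8 and 10.8 CPM in passing cells. Vpreb3, Cd79a and Cd79b differed less between samples, with 3083 and 3110 CPM for Vpreb3, 1010 and 1030 CPM for Cd79a, and 1186 and 873 CPM for Cd79b in B-lineage-like barcodes. A count of Vpreb3 was present in 95.8% and 96.0% of members and a count of Ighm in 98.3% and 92.2%, whereas a Vpreb1 count was present in 51.3% and 93.9%. Of the endothelial genes, Cdh5 was at 0 in members of both samples, and Emcn was at 6.08 and 6.28 CPM.

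Vpreb2, which the rule did not use, had 109 and 188 CPM in members and 1 count in the others, a pooled ratio of 1401 with a counting interval of 246 to 55836. Its transcript is close to that of Vpreb1, a gene of the rule, so its level in members is not independent of the rule.

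The threshold fell in a sparse range. Of the barcodes outside the filter with an endothelial sum under 3, 12 had a sum of 5 or 6 and 19 had a sum of 3 or 4, while 413 had 11 or more. The endothelial condition removed 2 barcodes. The median member had 21 counts of the 6 genes.

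B-lineage-like barcodes made up 20.3% of the barcodes outside the filter in Stroma1 (119 of 585, exact Clopper-Pearson 95% interval 17.2% to 23.8%) and 20.7% in Stroma2 (347 of 1675, 18.8% to 22.7%). Across the 5 libraries the share lay between 19.2% and 21.8%. Members were shallower than the other barcodes outside the filter, with median counts of 1006 and 1002 in members, against 3972 and 3239 in the others and 1523.5 and 1324 in passing cells. Summed over members, the groups held 164428 and 477492 counts. The median mitochondrial share of members was 6.05% and 5.09%, and 7 members were at 15% or more. Of the members, 46 shared their barcode sequence with a labelled barcode of another library of the same sample, 36 of them with another member, and 9 with a barcode of the other sample. Repeats were more frequent in the comparison group. With each sequence counted once per sample, the 466 members came to 448 and the 1794 others to 1411. Intervals and floors cover counting error only.

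Markers of other cell types were present in members at differing levels. The 12 stromal markers summed to 803 and 1058 CPM in members, against 7752 and 8562 CPM in the other barcodes outside the filter and 124464 and 248324 CPM in passing cells, and 34 of 466 members had 3 or more such counts. Early erythroid markers summed to 1648 and 2779 CPM in members, against 10009 and 10787 CPM in the others. The 11 endothelial markers, some of which the rule used, summed to 255 and 161 CPM in members, against 1035 and 429 CPM in the others, with Cdh5, Cldn5 and Stab2 at 0 in members. T cell markers summed to 42.6 and 16.8 CPM in members, against 14.6 and 11.2 CPM in the others. Neutrophil markers summed to 12.2 and 8.38 CPM in members, against 8666 and 1084 CPM in the others. Monocyte and macrophage markers summed to 36.5 and 75.4 CPM in members, against 473 and 75.1 CPM in the others. No member had 3 or more counts of T cell or neutrophil markers. The 7 plasmacytoid dendritic cell markers were higher in members, with 1052 and 787 CPM, against 259 and 180 CPM in the others and 507 and 415 CPM in passing cells. A count of them was present in 251 of 466 members and 3 or more in 81, and the list holds Tcf4, Ly6d and Irf8, which are also on the B-lineage lists. The other markers were sparse in members, with 1 count of Siglech, 1 of Ccr9 and 2 of Cox6a2, and Bst2 had 54.7 and 60.7 CPM in members, against 104 and 82.3 CPM in the others. The 6 B-lineage markers were all detected and summed to 9737 and 15550 CPM, but they include genes of the rule. Scrublet called 6 members doublets, and 77 of the other barcodes outside the filter.

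Clusters were then built without the 9 genes of the rule, to see whether members fell together by their other genes. Of 16 clusters, 3 held 455 of the 466 members (97.6%) together with 18 other barcodes. Cluster 1 held 329 members and was led by Dntt, Rag1, Mzb1, Lef1 and Ebf1, with 40 members of Stroma1 and 289 of Stroma2. Cluster 8 held 110 members and was led by Igkc, Ly6d, Fcrla, Spib and Cd72, with 75 members of Stroma1 and 35 of Stroma2. Cluster 13 was small and deep, with 16 members and a median of 5268 counts. The 11 members elsewhere had a median of 2888 counts and a median of 11 counts of 5 stromal genes. The leading genes define the clusters and are not a result between them.

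**Figure D1:**
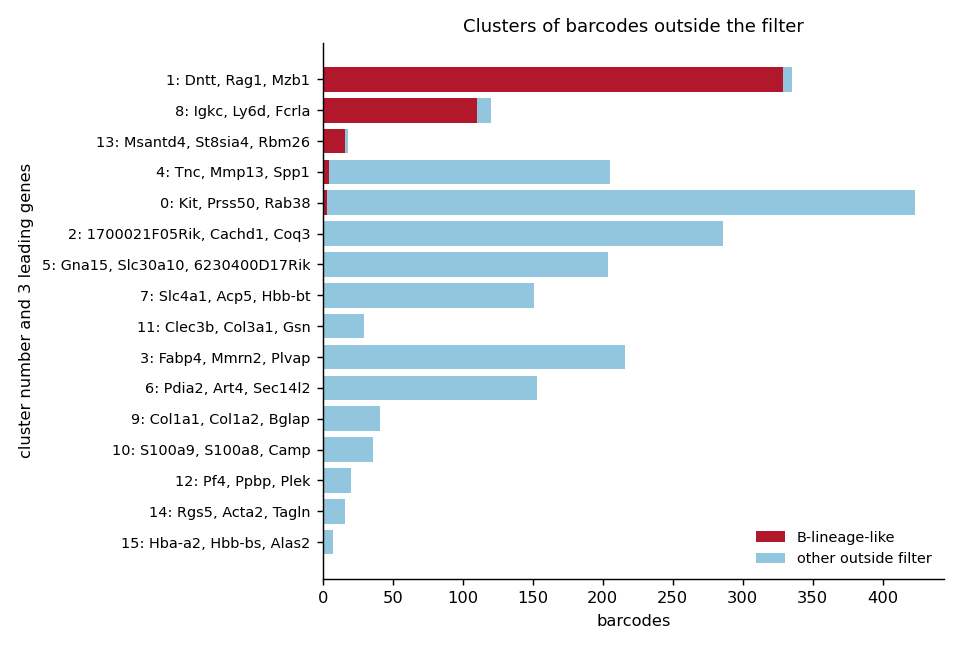
Bars show the number of barcodes in each of the 16 clusters of barcodes outside the filter, split into B-lineage-like and other barcodes, with the 3 leading genes of each cluster. Clusters 1, 8 and 13 hold 455 of the 466 B-lineage-like barcodes and 18 others.

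Counts were summed per sample and group, and B-lineage-like barcodes were compared with the other barcodes outside the filter over 11417 genes with edgeR's quasi-likelihood test. The 9 rule genes were left out of the tests. Of all genes tested, 1474 were higher in members (12.9%) and 1633 were lower (14.3%) at a Benjamini-Hochberg adjusted p under 0.05. Because members were chosen by 6 B-lineage genes, the direction of other B-lineage genes is not independent of that choice. In sums over barcodes of unlike types, fewer cells of a type and less RNA per cell cannot be told apart.

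Genes of V(D)J recombination were higher in members: 6 of 9 tested rose and none fell, with a median log2 difference of 2.46, beside -0.15 over all genes tested. Rag1, the catalytic subunit of the recombinase, had 1253 and 1941 CPM in members of Stroma1 and Stroma2, against 1.71 and 4.51 CPM in the others. The groups were far apart in both samples, with a log2 difference of 8.79 ± 0.29 (SE, adjusted p = 2.95e-12, edgeR). Rag2, its partner, had 122 and 216 CPM in members, against 0 and 0.501 CPM in the others, where only 3 counts were found, so that the pooled ratio was 532 with a counting interval of 178 to 2614 (adjusted p = 4.26e-09, edgeR). Dntt had 450 and 1301 CPM in members, against 0 and 2.84 CPM in the others (log2 difference 8.93 ± 0.36, adjusted p = 1.38e-11, edgeR). The end-joining genes Lig4, Xrcc4 and Xrcc6 also rose, by 5.01, 2.32 and 2.46 on the log2 scale, while Xrcc5, Prkdc and Dclre1c did not pass the test.

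Of 23 B-lineage transcription factors tested, 20 rose and none fell, with a median log2 difference of 3.93. Ebf1, which specifies the lineage, had 1691 and 2297 CPM in members, against 40.2 and 22.9 CPM in the others (log2 difference 5.92 ± 0.28, adjusted p = 1.01e-10, edgeR). Its level in passing stroma was 533 and 399 CPM, between the other groups. Pax5, which commits cells to the B lineage, had 553 and 492 CPM in members, against 0.428 and 4.01 CPM in the others and 0 and 3.796 CPM in passing cells (log2 difference from the others 7.43 ± 0.45, adjusted p = 1.87e-09, edgeR). Unlike Ebf1, it was near 0 outside the members. Pou2af1, a coactivator of octamer-binding factors, had 1143 and 637 CPM against 2.57 and 1.502 CPM in the others (log2 difference 8.57 ± 0.30). Spib, an Ets factor, had 517 and 134 CPM in members and only 2 counts in the others, a pooled ratio of 966 with a counting interval of 263 to 8053. Irf4 had 122 and 77.5 CPM in members and 1 count in the others, a pooled ratio of 739 (127 to 29708). Lef1 rose by 7.61, Bach2 by 6.42, Sox4 by 4.61, Foxo1 by 4.40, Myb by 2.17 and Tcf3 by 1.33 on the log2 scale. Ikzf1, which encodes Ikaros, did not pass the test (462 and 262 CPM in members, 203 and 220 CPM in the others), nor did Bcl11a and Id2.

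**Figure D2:**
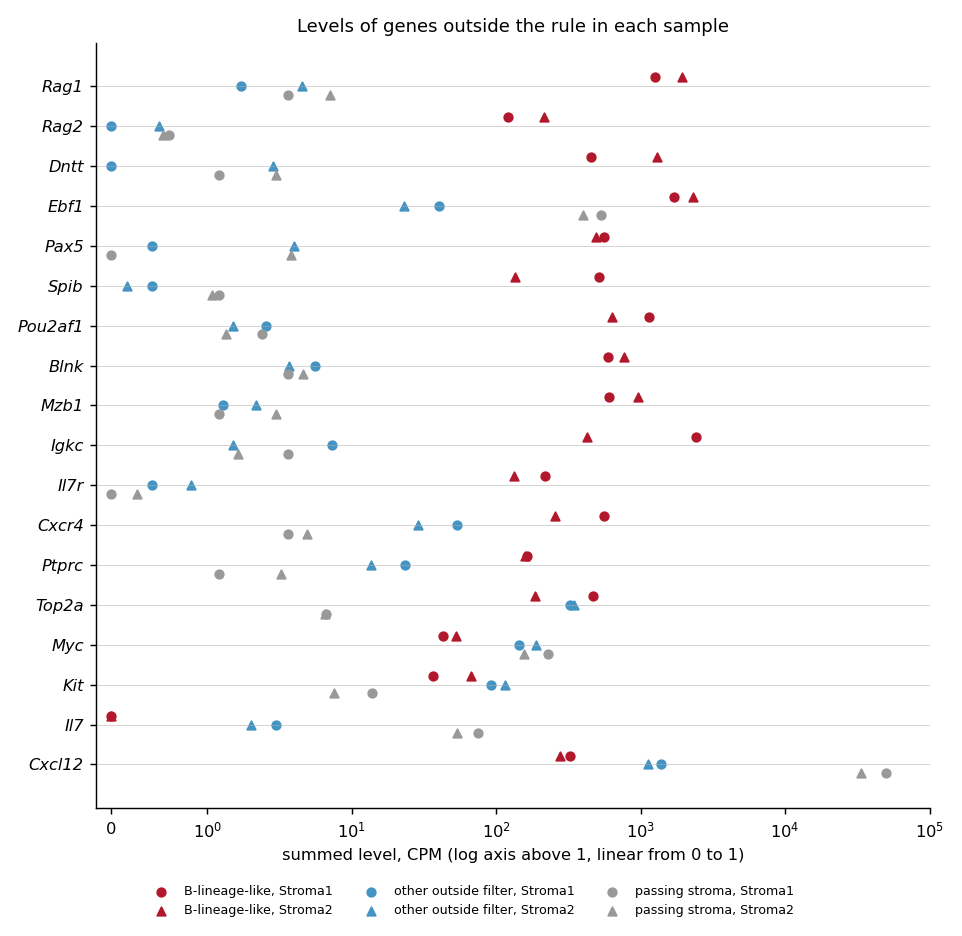
Points show the summed level (CPM, on an axis that is linear up to 1 and logarithmic above) of 18 genes that the rule did not use, in B-lineage-like barcodes, other barcodes outside the filter and passing stroma of Stroma1 and Stroma2. Rag1 lies at 1253 and 1941 CPM in members and at most 7.05 CPM elsewhere, Ebf1 is also present in passing stroma, and Il7 is at 0 in members.

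Of 14 genes tested for signalling from the pre-B and B cell receptors, 11 rose and none fell (median log2 difference 4.20). Blnk, the adaptor downstream of the pre-B receptor, had 590 and 771 CPM against 5.57 and 3.67 CPM in the others (log2 difference 7.18 ± 0.31, adjusted p = 2.02e-11, edgeR). Cd72, an inhibitory coreceptor, had 426 and 203 CPM against 0.856 and 0.501 CPM (log2 difference 8.52 ± 0.42). Blk, a Src-family kinase, had 146 and 31.4 CPM in members and 1 count in the others, a pooled ratio of 506 (85.6 to 20486). The kinases Syk and Btk rose by 5.36 and 1.23 on the log2 scale. Cd81, Ptpn6 and Dapp1 did not pass the test.

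Among 15 early B surface and stage genes tested, 10 rose and 2 fell. Il7r, the interleukin 7 receptor chain, had 219 and 132 CPM in members, against 0.428 and 0.835 CPM in the others (log2 difference 7.55 ± 0.53, adjusted p = 1.26e-08, edgeR). Mzb1, an endoplasmic reticulum protein of B cells, had 602 and 955 CPM against 1.28 and 2.17 CPM (log2 difference 8.64 ± 0.32). Ly6d had 480 and 159 CPM in members, against 13.3 and 0.167 CPM in the others (log2 difference 6.00 ± 0.53, adjusted p = 2.30e-07, edgeR). Il2ra, which encodes CD25, a pre-B cell surface protein, had 103 and 10.5 CPM in members and 4 counts in the others (adjusted p = 3.26e-04, edgeR). Those 22 Il2ra counts lay mostly in Stroma1. The genes that fell were Kit (36.5 and 67.0 CPM in members, 91.6 and 115 CPM in the others, log2 difference -1.01 ± 0.33, adjusted p = 0.032, edgeR) and Cd34 (0 and 10.5 CPM in members, 67.6 and 28.9 CPM in the others, adjusted p = 0.0214, edgeR), both progenitor genes. The Kit call was lost under DESeq2, and without library 1.1, 1.2, 2.2 or 2.3 (log2 differences without 1 library of -1.65 to -0.70). It was also lost after thinning to 500 counts and without the doublets called by Scrublet. The same held with only the members high, or only those low, in counts of Vpreb1 and Igll1. The Cd34 call was lost without library 2.3 (log2 difference -2.12, adjusted p = 0.0582, edgeR), without the endothelial-like barcodes of the comparison group and without the doublets called by Scrublet. Cd24a did not pass the test.

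Igkc had 2433 and 425 CPM in members, against 7.28 and 1.502 CPM in the others and 3.62 and 1.63 CPM in passing cells (log2 difference from the others 8.10 ± 0.31, adjusted p = 4.96e-12, edgeR). The member level was higher in Stroma1, the reverse of Dntt. The lambda constant genes Iglc1, Iglc2 and Iglc3 had 4, 8 and 7 counts over all members, all of them in Stroma1, and did not pass the count filter. Iglc2 and Iglc3 transcripts match at 95.1% of aligned bases, so their counts are uncertain as single genes.

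Of 8 genes of mature B cells and antigen presentation that passed the filter, 5 rose, of 16 on the list. Ighd had 25 counts in members and 1 in the others, and H2-Ab1 rose by 2.92 on the log2 scale. Ms4a1 had 5 counts and Cd74 16 counts in members, 15 of the latter in barcodes low for surrogate light chain, and neither was tested. Of 9 plasma cell genes, 3 passed the filter and 1, Ighg2b, rose, and Jchain was at 0 in members.

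The receptors for stromal signals were mixed, with 5 of 14 higher and 4 lower. Cxcr4, the receptor of CXCL12, had 553 and 256 CPM in members, against 53.5 and 28.9 CPM in the others (log2 difference 3.11 ± 0.27, adjusted p = 1.56e-07, edgeR). Il2rg, which pairs with Il7r, rose by 2.41, and Selplg and Itga4 by 2.19 and 0.88 on the log2 scale. Itgb1, Cd44 and Stat5a fell by 1.34, 1.21 and 1.67. Flt3 had 1 count in members and was not tested.

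All 14 tested genes of blood cells in general rose, with a median log2 difference of 3.81, among them Laptm5 by 4.37 and Coro1a by 4.36. Ptprc, which encodes CD45, one of the sorted proteins, had 164 and 157 CPM in members, against 23.5 and 13.5 CPM in the others and 1.21 and 3.25 CPM in passing cells (log2 difference from the others 3.05 ± 0.38, adjusted p = 1.13e-05, edgeR). A Ptprc count was present in 16.0% and 12.4% of members, with median depths of 1006 and 1002 counts, against 0.105% and 0.527% of passing cells, with median depths of 1523.5 and 1324 counts. Pecam1, which encodes CD31, had 176 and 85.9 CPM in members, against 109 and 46.9 CPM in the others, and did not pass the test (adjusted p = 0.141, edgeR). It was called higher without the endothelial-like barcodes of the comparison group (log2 difference 2.72) and lower after thinning.

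Genes of DNA replication were lower in members than in the other barcodes outside the filter, where 17 of 20 fell and none rose, with a median log2 difference of -1.14. Ccne1 had 48.7 and 54.5 CPM in members, against 214 and 202 CPM in the others (log2 difference -2.10 ± 0.28, adjusted p = 2.62e-05, edgeR). Tk1 fell by 1.92 and Mcm6 by 1.02 on the log2 scale. Of 19 mitosis genes, 8 fell and none rose, and Top2a, a mitotic topoisomerase, had 468 and 184 CPM in members, against 326 and 348 CPM in the others, and did not pass the test (adjusted p = 0.363, edgeR). Of 10 growth genes, 9 fell, including Myc (42.6 and 52.4 CPM in members, 143 and 189 CPM in the others, log2 difference -1.90 ± 0.31, adjusted p = 1.81e-04, edgeR), Odc1 by 2.21 and Npm1 by 1.32. Early erythroid markers, summed above, were also lower in members than in the others, and their part in these differences was not tested.

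The other genes furthest lower in members belonged to neutrophils and endothelium. Camp, a neutrophil granule gene, had no count in members, against 1033 and 127 CPM in the others, which makes it at least 81.5-fold lower at a floor of 3 counts over the group. Lcn2, Ltf, Retnlg and Chil3, also neutrophil genes, were at least 30.7-, 24.1-, 17.1- and 14.1-fold lower, and all were higher in the others of Stroma1 than of Stroma2. Few of the other barcodes held such counts: of 1794, 93 had a count of the 9 neutrophil markers and 41 had 3 or more. The endothelial gene Cldn5 was at least 8.35-fold lower, Mmrn2 at least 13.2-fold and Lrg1 at least 13.4-fold. The rule kept barcodes rich in endothelial counts out of the members, but only 2 of these met its B-lineage part. The others held 171 endothelial-like barcodes. Without the endothelial-like barcodes of the comparison group the calls for Cldn5 and Mmrn2 were lost, and DESeq2 did not call Cldn5, Mmrn2 or Chil3. Of the genes furthest higher, 2 were on no list. Rsph9 had 60.8 and 62.8 CPM in members and no count in the others, at least 173-fold higher, and Atp1b1, a sodium pump subunit, had 511 and 410 CPM against 0.856 and 0.835 CPM (log2 difference 8.84 ± 0.41).

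Of the remaining lists, 12 of 16 immediate-early genes rose and 2 fell. Cd69, an activation marker of lymphocytes, had 468 and 450 CPM in members, against 0.856 and 2.17 CPM in the others (log2 difference 7.87 ± 0.35), and Jun rose by 2.29. Of 12 interferon and MHC class I genes, 4 rose, among them B2m, H2-K1 and H2-D1, and Ifitm3 fell, while 4 rose and 4 fell with relative log expression factors. Of 15 survival genes, 5 rose, among them Btg1 by 3.36 and Mcl1 by 1.36. Of 16 nuclear proteins of dividing cells, 3 rose and 6 fell. Of 11 niche ligands, Lgals1 rose and 4 fell: Cxcl12 (322 and 279 CPM in members, 1390 and 1132 CPM in the others, log2 difference -2.20 ± 0.15), Kitl, Fn1 and Vcam1. Their list had a median log2 difference of -1.03, or -0.36 with the genes at 0 in members set at their bound. Kitl rested on 4 counts in members, all of Stroma1, and its call was lost under DESeq2 and without library 1.1 (log2 difference -2.02).

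**Figure D3:**
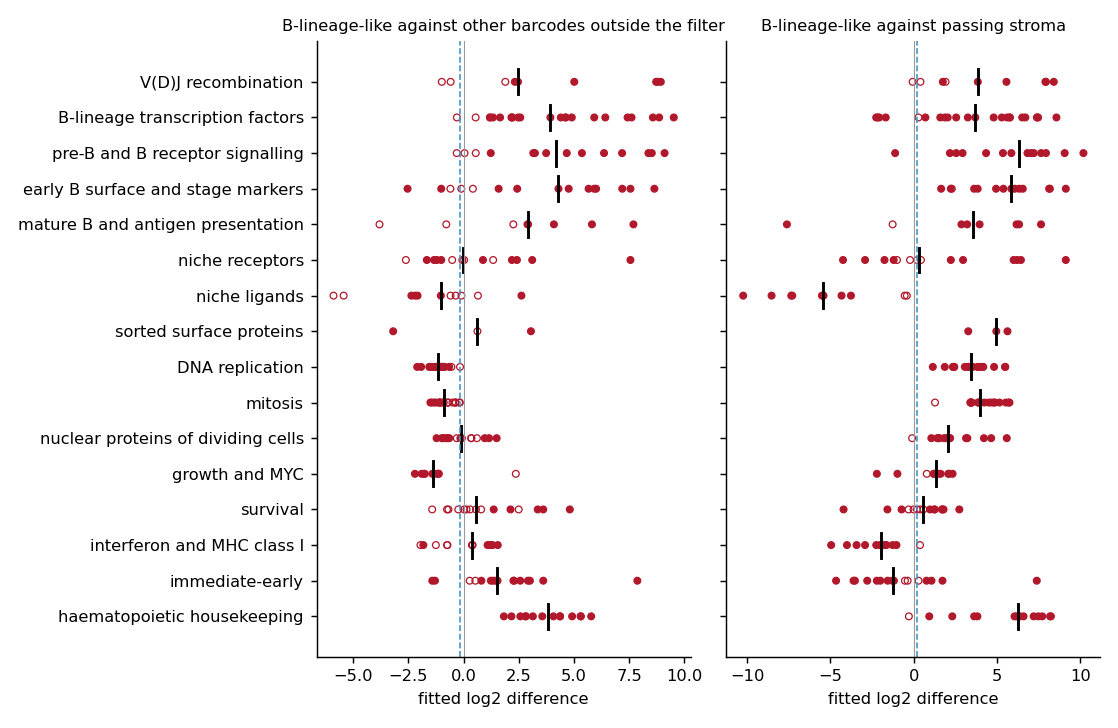
Each point is the fitted log2 difference of 1 tested gene between B-lineage-like barcodes and the other barcodes outside the filter (left) or passing stroma (right), by gene list. Filled points passed an adjusted p of 0.05, black bars are list medians and the dashed line is the median of all genes tested, -0.15 on the left and 0.20 on the right. The replication list has a median of -1.14 on the left and 3.46 on the right.

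The same members were set against passing stroma in the same fit, which shares the member sums with the comparison above. Here 2836 of 11417 genes were higher in members (24.8%) and 2406 were lower (21.1%), a split of 54.1% higher among the calls. With relative log expression factors in place of TMM, 2006 were higher and 3097 lower, and the median of all genes was -0.17, beside 0.20.

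Against stroma, 20 of 20 replication genes rose and 18 of 19 mitosis genes rose (medians 3.46 and 3.98). Top2a had 468 and 184 CPM in members, against 6.63 and 6.51 CPM in passing cells (log2 difference 5.15 ± 0.37, adjusted p = 4.18e-09, edgeR). Myc did not follow, with 42.6 and 52.4 CPM in members and 228 and 156 CPM in passing cells (log2 difference -2.21 ± 0.31, adjusted p = 1.53e-05, edgeR). Among the listed genes that were higher, those of lymphoid and blood cells had the largest differences. Genes outside the lists were not ranked in this comparison, and the lists were chosen to hold many such genes. Il7r had 219 and 132 CPM in members and 1 count in passing cells, a pooled ratio of 825 (145 to 32896), and Blk had no count in passing cells, at least 108-fold higher in members. Cd72, Pou2af1, Igkc, Dntt, Ptprcap and Cd53 rose by 9.06, 8.57, 8.54, 8.41, 8.24 and 8.19 on the log2 scale. Ebf1 rose by 1.87 (SE 0.23, adjusted p = 3.98e-06, edgeR), less than in the comparison with the other barcodes, and Sox4 rose by 1.599. Of the 23 transcription factors 4 fell, Id3, Id2, Runx1 and Bcl6.

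Of 11 niche ligands, 9 fell against stroma and none rose (median -5.43, or -4.33 with the genes at 0 in members at their bound). Cxcl12, the ligand of Cxcr4, had 322 and 279 CPM in members, against 50110 and 33294 CPM in passing cells (log2 difference -7.35 ± 0.18, adjusted p = 2.22e-14, edgeR). Il7, the ligand of Il7r, had no count in members, against 74.7 and 53.1 CPM in passing cells, at least 12.8-fold lower. Kitl, Csf1, Tnfsf11 and Vcam1 fell by 7.29, 5.50, 5.43 and 5.41 on the log2 scale, Ptn was at least 3.76-fold lower, and Cd83, a gene of the mature B list, was at least 2.16-fold lower. Cxcr4 had 553 and 256 CPM in members, against 3.62 and 4.88 CPM in passing cells (log2 difference 6.00 ± 0.34, adjusted p = 2.93e-10, edgeR). Interferon and MHC class I genes were lower in members in 11 of 12 cases (median -1.94), among them B2m by 1.03 and H2-K1 by 1.86 on the log2 scale. Of 16 immediate-early genes 9 fell and 4 rose, and Fos fell by 3.52.

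Members differed among themselves by stage genes, and the mixture differed between the samples. The surrogate light chain was taken as high (SLC-high) where Vpreb1 and Igll1 together had 3 or more counts. The other members are called SLC-low. This split rests on raw counts of 2 genes of the rule. Median depths were 1124.5 and 1018 counts in SLC-high members of Stroma1 and Stroma2, against 958 and 835 in SLC-low members. Their median counts of the 6 genes were 22.5 and 22, against 18 and 10.5. SLC-high barcodes were 56 of 119 members in Stroma1 (47.1%, exact Clopper-Pearson interval 37.8% to 56.4%) and 321 of 347 in Stroma2 (92.5%, 89.2% to 95.05%). By library the shares were 46.0% and 48.2% in Stroma1 and 91.2%, 91.6% and 94.8% in Stroma2. A Dntt count was present in 21 members of Stroma1 (17.6%) and 214 of Stroma2 (61.7%), and an Igkc count in 72 (60.5%) and 69 (19.9%). In all 3 measures the shares of the libraries of Stroma1 lay apart from those of Stroma2. After thinning each barcode to 500 counts the shares were 11.8% and 44.4% for Dntt and 47.9% and 15.9% for Igkc. In passing cells, which should lack both, 0.211% and 0.316% had a Dntt count and 0.316% and 0.263% an Igkc count, at median depths of 1523.5 and 1324 counts. A Rag1 count was about equally frequent, in 60.5% and 64.8% of members. With 2 samples of 1 group there is no test of a difference between them.

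**Figure D4:**
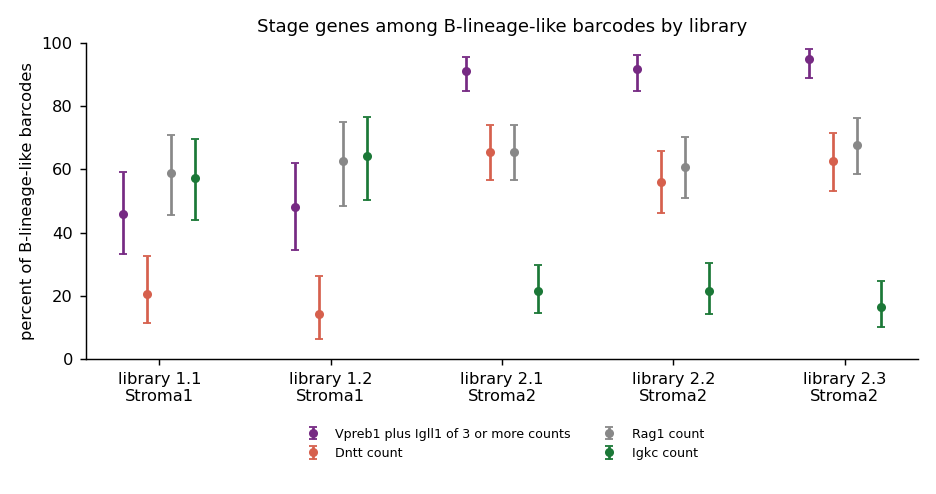
Points show the percent of B-lineage-like barcodes in each of the 5 libraries with 3 or more counts of Vpreb1 plus Igll1, or with a count of Dntt, Rag1 or Igkc, with exact 95% intervals. SLC-high shares are 46.0% and 48.2% in the libraries of Stroma1 and 91.2% to 94.8% in those of Stroma2, and the Igkc shares run the other way.

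Dntt and Igkc were seen together in fewer members than either alone. Over both samples 213 members had Dntt and no Igkc and 119 had Igkc and no Dntt. A further 22 had both, all of Stroma2, and 112 had neither. The samples differed in both genes, so the overlap is also given by sample. In Stroma1, 21 members had only Dntt, 72 only Igkc and 0 both. In Stroma2, 22 of the 69 members with Igkc also had Dntt, which was present in 214 of all 347 members there. At these depths a gene can be missed. Of the 235 members with Dntt, 232 were SLC-high and 3 were SLC-low. Igkc was present in 67 SLC-high and 74 SLC-low members. Seen the other way, 57 of 63 SLC-low members of Stroma1 (90.5%) and 17 of 26 of Stroma2 (65.4%) had Igkc, against 15 of 56 (26.8%) and 52 of 321 (16.2%) of the SLC-high members. A total of 70 members had no count of Vpreb1 or Igll1, 57 of them in Stroma1, and 302 had 6 or more.

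SLC-high and SLC-low members were compared within each sample, with the rule genes out of the tests. Of 10662 genes tested, 32 were higher in SLC-high members (0.3%) and 12 were lower (0.113%), and the median log2 difference over all genes was 0.36. In this fit the spread was in effect pooled over genes. A gene's own variation between the samples had almost no weight in its p-value. Dntt had 938 and 1367 CPM in SLC-high members, against 0 and 187 CPM in SLC-low members (log2 difference 4.65 ± 0.55, adjusted p = 2.16e-13, edgeR). Vpreb2 had 228 and 197 CPM in SLC-high members and 1 count in SLC-low ones, a pooled ratio of 22.7 (counting interval 3.99 to 904), but it is a near copy of Vpreb1, which defined the groups. Erg, an Ets factor, had 215 and 237 CPM in SLC-high members and 1 count in SLC-low ones, a pooled ratio of 26.3 (4.63 to 1047, adjusted p = 0.00197, edgeR). Tcf4, which encodes the E protein E2-2, had 456 and 441 CPM in SLC-high members, against 129 and 150 CPM in SLC-low ones (log2 difference 1.92 ± 0.48, adjusted p = 0.0203, edgeR). All 4 genes were higher in SLC-high members of both samples.

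Igkc had 710 and 280 CPM in SLC-high members, against 4022 and 2878 CPM in SLC-low ones (log2 difference -2.67 ± 0.33, adjusted p = 3.76e-12, edgeR). Ly6d had 139 and 129 CPM in SLC-high members, against 795 and 673 CPM in SLC-low ones (log2 difference -1.83 ± 0.42, adjusted p = 0.00649, edgeR). These were the 2 listed genes that fell, and both sums were lower in SLC-high members of both samples. Il2ra had 38.0 and 6.66 CPM in SLC-high members, against 164 and 74.8 CPM in SLC-low ones, and did not pass the test (adjusted p = 0.225, edgeR). Nor did Rag1 (1458 and 2003 CPM in SLC-high, 1064 and 897 CPM in SLC-low members, adjusted p = 0.339, edgeR), Rag2, Ebf1, Pax5, Blnk, Il7r, Cxcr4, Sox4, Myc or Top2a. No gene of the replication, mitosis, growth, survival or receptor signalling lists was called in this comparison, in edgeR with 829 genes at an unadjusted p under 0.05. The SLC-low group of Stroma2 was small, with 26 barcodes and 26754 counts.

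Without library 1.1 or 1.2, 8 genes were higher in each case, against 18 without library 2.1, and DESeq2 called 2 higher and 8 lower. The calls for Erg and Vpreb2 were lost without library 1.1 or 1.2, that for Ly6d without 1.2 or 2.1, and that for Tcf4 without 1.2 or 2.2. After thinning none of these 4 calls was kept, and those for Ly6d and Tcf4 were also lost under DESeq2, without the sample block and with the split at 1 count. That for Tcf4 was lost as well with no filter on low counts and with 10 or more counts of the 6 genes required. DESeq2 called only 2 genes higher, so Dntt, Erg and Vpreb2 cannot all have kept their calls under it.

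**Figure D5:**
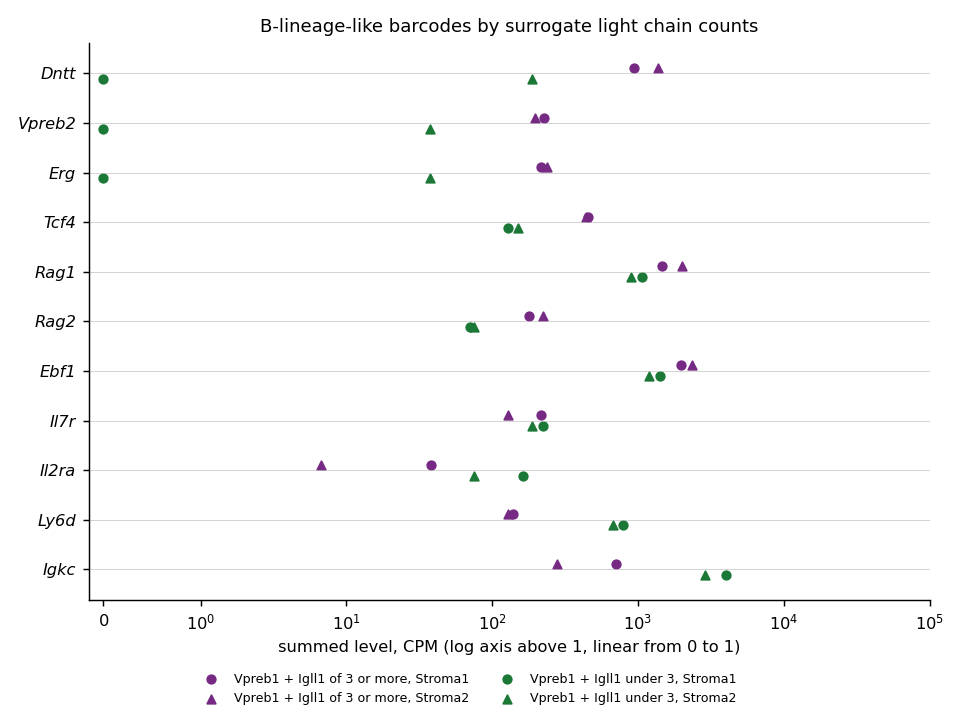
Points show the summed level (CPM, linear up to 1 and logarithmic above) of 11 genes in members with 3 or more counts of Vpreb1 plus Igll1 and in the other members, in Stroma1 and Stroma2. Dntt lies at 938 and 1367 CPM in SLC-high members and at 0 and 187 CPM in SLC-low members, and Igkc at 710 and 280 CPM against 4022 and 2878 CPM.

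Cycling was uneven among members and followed depth. After thinning to 500 counts, 2 or more counts of 19 mitosis genes were found in 16.8% of members of Stroma1 and 10.7% of Stroma2, against 29.2% and 34.6% of the other barcodes outside the filter and 0.422% and 0.263% of passing cells. In the deepest of 4 depth groups of members, with 1447 to 12522 counts, 38 of 117 barcodes reached that level, against 4 of 115, 8 of 118 and 7 of 116 in the shallower groups. In SLC-high members the shares were 10.7% and 10.6%, and in SLC-low members 22.2% and 11.5%, with intervals that overlapped. Nuclear proteins of dividing cells, such as Stmn1 and Hmgb2, reached 2 or more thinned counts in 89.1% and 87.9% of members, against 84.3% and 92.8% of the other barcodes outside the filter and 51.3% and 51.8% of passing cells.

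Over the 16 clusters, the genes whose level was most like the summed rule genes were Dusp2 (Pearson r = 0.930), Lef1 (0.923), Itpr2, Camk2d, Pou2af1, Chst3, Ifi203, Arl5c, Pyhin1 and Arntl (0.886). The clusters share their libraries, and members lay in few of them, so these values are a description.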

How the data were processed

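Single-cell RNA libraries of sorted bone marrow stroma were made with inDrops. The deposited table holds whole-number counts per gene and barcode, which the authors left unnormalized, and the submitters' processing notes name Bowtie 1.1.1 and GRCm38 with no role. How barcodes were filtered is not given in the sources used here beyond the deposited labels. The mitochondrial fraction was deposited by the authors per barcode. Counts were summed per sample and group (2 samples, 5 libraries) and tested with edgeR 4.0.16 in R 4.3.3 (TMM, filterByExpr at a minimum of 10, quasi-likelihood F test, Benjamini-Hochberg adjustment, 0.05), with the sample as a block because every group was taken from both samples. DESeq2 1.42.0 was an alternative. The tests were also run on simulated sums drawn from a single pooled profile with a fixed spread and no sample effect. Those sums were unlike the groups here, so that run cannot show how many of the present calls are false. The 9 rule genes stayed in library sizes but were not tested. Clusters were made with scanpy 1.11.5. Thinning kept 500 counts per barcode, and the floor for groups at 0 was 3 counts over the group. Intervals cover counting error only.

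The members and gene lists were chosen with earlier results of these data known. The genes named were the listed genes furthest higher and lower among those past the threshold, and a set of stage, niche and sorted-surface genes. Only in the comparison with the other barcodes outside the filter were the genes furthest higher and lower of all also named. Alternatives were DESeq2, relative log expression factors, no filter on low counts, no sample block, thinning, other cutoffs of the rule, leaving out each library or sample, doublets, endothelial-like or high-mitochondrial barcodes, and members of 1 stage only (the last added after seeing the data). A few genes are not reported here.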

Additional observations from a re-analysis of the deposited data

Results flagged for a closer look

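Barcodes that meet the rule were also present among those with no filter label, which no comparison used: 143 of 9921, with 12 in Stroma1 and 131 in Stroma2. Of these, 137 had under 500 counts, and their median was 329 counts. Dntt was present in 38, Rag1 in 61 and Igkc in 25, and 92 were SLC-high. In Stroma1 4 of 12 were SLC-high, and in Stroma2 88 of 131.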

How the results depend on the processing

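Against the other barcodes outside the filter, 1022 genes were higher and 1007 lower under DESeq2, 812 and 1051 after thinning to 500 counts, and 506 and 654 with SLC-low members only. Leaving out 1 library gave 1214 to 1310 higher and 1097 to 1529 lower. Against passing stroma, DESeq2 gave 1546 higher, thinning gave 1337 higher and 1524 lower, and leaving out 1 library gave 2332 to 2518 higher and 2049 to 2294 lower. Between SLC-high and SLC-low members, 12 genes were higher with 10 or more counts of the 6 genes required, 2 under DESeq2, 15 with no filter on low counts, 12 with no replicate block and 3 after thinning, where 2 were lower. Leaving out 1 library gave 8 to 29 higher and 7 to 13 lower. The calls for Dntt and Igkc were kept under each of these. Pecam1 reversed after thinning, to -1.06 (adjusted p = 0.0426, edgeR), against 0.62 and no call without thinning, and was called higher, at 2.72, without the endothelial-like barcodes. The share of B-lineage-like barcodes in Stroma2 was 25.6% with each barcode counted once per sample (334 of 1307) and 22.7% below a mitochondrial share of 10% (332 of 1460). With neither limit it was 347 of 1675, so both limits took out more of the other barcodes than of the members. Why they did so, and why the Pecam1 call changed, was not tested. Without the sample block the counts were 1469 higher and 1518 lower against the other barcodes and 2868 and 2448 against passing stroma. Residual degrees of freedom were 2 and 3, and SLC-low members of Stroma2 held 26754 counts, which limits what the comparison of stages could detect.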

Other observations

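Among the passing cells, 20 of 2847 also met the rule, 3 in Stroma1 and 17 in Stroma2. All 20 had 3 or more counts of 5 stromal genes, with a median of 200.5 such counts, against a median of 0 in the B-lineage-like barcodes of the 3 member-rich clusters. Dntt was present in 5 of them, Igkc in 5 and Rag1 in 11.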
